A study of Mus musculus with 33 samples.

Results

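The change in gene expression of microglia in the corpus callosum (CC) over 3 days, from postnatal day 7 (P7) to P10, was measured by comparing the libraries labelled CC and P10 with those labelled CC and P7. The members were chosen by these labels alone, which gave 7 of the 33 libraries of the series, 4 at P10 and 3 at P7. By the labels, from which all sexes here are taken, replicates 1 and 2 at P7 came from males and replicate 3 from a female. At P10, replicates 1 and 2 came from females and replicates 3 and 4 from males. The series description gives all animals as C57BL6, and they were untreated and kept free of specific pathogens, and were perfused before their microglia were sorted as CD45+, CD11b+ and Gr1- cells and profiled by bulk RNA-seq. The study also bred Cx3cr1 GFP/WT mice, and which animals gave which library is not stated in the sources used here. The same sort was made from the cortex (Cx) and cerebellum (Cb) at both ages, with 3 libraries each at P7 and 4 at P10, and these served to show where the CC differed. Their sexes by replicate number were those of the CC. Adult libraries (P42) of the CC, Cx and Cb, 4 each, had replicates 1 and 2 from females and 3 and 4 from males. They entered the common fit, and their values are given for a few genes. No source says that the samples of a group came from separate animals or pools, so the p-values measure the spread between these samples, which may in part be technical.

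The CC is the large white matter tract between the cerebral hemispheres, and its axons become wrapped in myelin during the weeks after birth in the mouse. Microglia, the resident macrophages of the brain, gather in this tract early in postnatal life as rounded, phagocytic cells that carry a set of genes such as Spp1, Gpnmb, Igf1, Itgax and Clec7a. This set, here called priming genes after the study, is shared in large part with the microglia found around amyloid plaques (disease-associated microglia), whereas the surveying microglia of the mature brain carry homeostatic genes such as P2ry12 and Tmem119.

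Between 24383500 and 36254600 reads were counted on genes in the 7 libraries. Values below are in CPM, read counts scaled to the size of each library after TMM normalization, and 1 read was worth at most 0.0413 CPM. P10 replicates 3 and 4, which were the libraries labelled male at that age, stood apart from the rest. Their log2 CPM over 10086 genes correlated at 0.852 to 0.877 with replicates 1 and 2 and at 0.815 with each other, while replicates 1 and 2 correlated at 0.929 and the P7 libraries at 0.946 to 0.962. They also held reads of fewer genes, 16146 to 16528 against 17510 to 18834 in the other 5. Results are therefore given with all 7 libraries, and also without these 2 where that ended a call or moved a count by more than 1.5 times. Sex and whatever else set these libraries apart cannot be told apart, and without them P10 is represented by libraries labelled female only. A list of 5 sex label genes summed to 281 to 346 CPM in the P10 libraries labelled female and to 106 to 113 CPM in those labelled male. In P7 replicate 3, labelled female, the sum was 110 CPM, against 110 and 163 CPM in P7 replicates 1 and 2. This sum therefore did not set that library apart from those labelled male.

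A gene was called when its adjusted p-value was at most 0.01 and its log2 fold change at least 1 in either direction, and it was said to pass the wider rule when its adjusted p-value was at most 0.05, with no limit on size. Unless another tool or fit is named, adjusted p-values are from edgeR's quasi-likelihood test with Benjamini-Hochberg adjustment over the 20917 genes tested. "Rose" and "fell" are used only of genes that passed at least the wider rule. The 196 genes called (0.937% of those tested) were 83 higher at P10 (0.397%) and 113 lower (0.54%). The wider rule held for 421 higher (2.01%) and 607 lower (2.9%). These are the shares over all genes against which the counts of each gene list below are to be read. The lists were written with earlier results of these data known, so their counts are not independent evidence of a direction. Of the 196 genes, 187 had no overlap between the P7 and the P10 libraries, against 3038 of all genes tested (14.5%). Without P10 replicates 3 and 4, 187 genes were called (0.894%), 98 higher (0.469%) and 89 lower (0.426%), 396 passed the wider rule as lower, and 124 genes were called in the same direction both ways, 63.3% of the first list and 66.3% of the second. All 196 genes kept their direction without those libraries. Leaving out P7 replicate 3, the library labelled female, lowered the count to 130 genes, 72 higher and 58 lower. Without P7 replicate 1, 74 genes were called lower, and without P10 replicate 3, 129 were called higher. The genes past the wider rule as lower numbered 314 without P7 replicate 3 and 365 without P7 replicate 1.

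**Figure D1:**
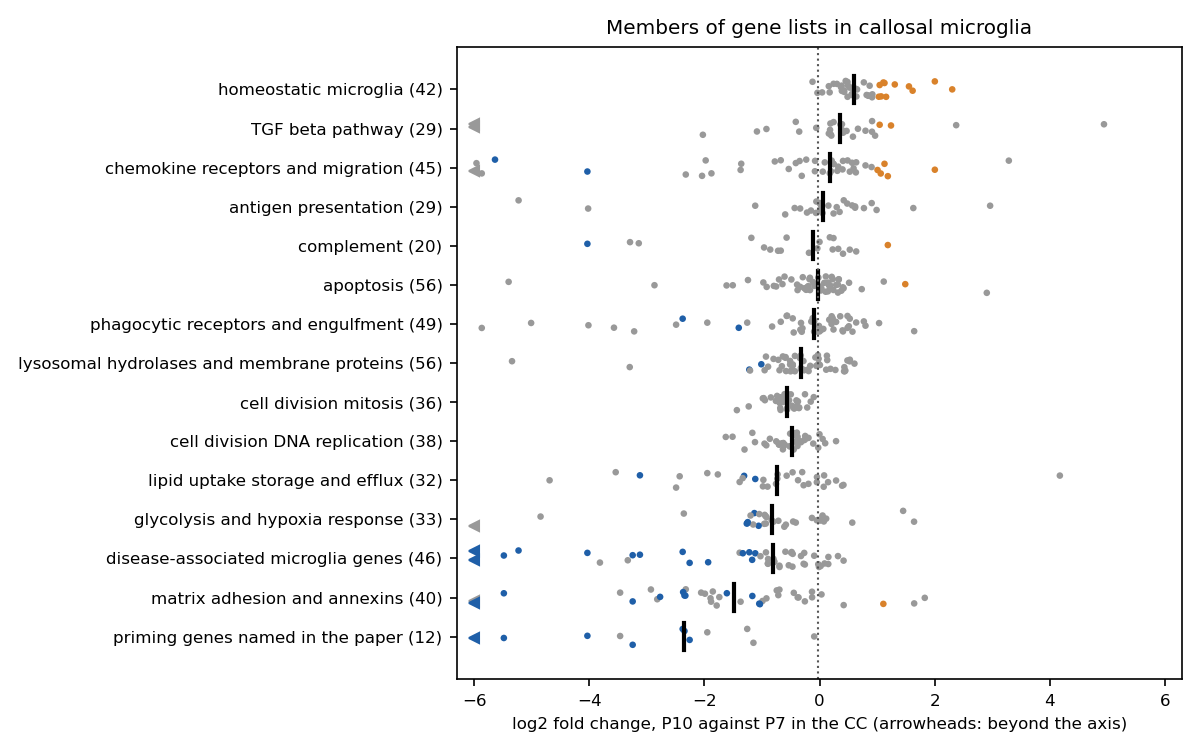
Log2 fold change from P7 to P10 in the CC for the members of 15 gene lists (number tested in brackets), with 1 point for each gene, orange for genes called higher and blue for genes called lower, a bar at the median of each list and a dotted line at the median of all genes (-0.02). The homeostatic genes lie to the right with a median of 0.61, and the priming genes lie to the left with a median of -2.36.

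The priming genes had the lowest median of the 15 lists in the plot of gene lists. Of the 12 that the study names, 7 were called lower at P10, and 11 had lower values in all 4 P10 libraries than in all 3 P7 libraries (9.64% of all genes did so). The median log2 fold change of the 12 was -2.36, against -0.02 for all genes tested. The study presents these as known priming genes and shows them on these same samples, so the list is not independent evidence of the direction. Without P10 replicates 3 and 4, 6 of the 12 were called lower. In a sorted bulk sample, fewer cells carrying a gene and less RNA of it in each cell cannot be told apart.

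Gpnmb, a membrane glycoprotein of phagocytic macrophages, was at 775, 812 and 898 CPM in the 3 P7 libraries and at 0.0297, 1.504, 11.3 and 6.96 CPM in the 4 P10 libraries. The lowest P7 library was far above the highest P10 library, and P10 replicate 3, the highest at P10, held 380 reads. The log2 fold change was -7.38 (standard error 0.91, adjusted p = 2.6e-06, edgeR), and -10.07 without P10 replicates 3 and 4.

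Spp1, which codes for the secreted matrix protein osteopontin, had 6686, 7402 and 11499 CPM at P7 and 64.7, 53.9, 501 and 141 CPM at P10. All P10 libraries were below all P7 libraries, and P10 replicate 3 was the highest of its group. Its log2 fold change was -5.49 (standard error 0.74, adjusted p = 1e-05, edgeR) with all libraries and -7.15 without P10 replicates 3 and 4. Its call was lost with limma-voom (adjusted p = 0.023) and when only the 2 groups were fitted (adjusted p = 0.011, edgeR). The exons of Spp1 overlap those of Gm42793 on the same strand, and the authors discarded reads that fell on several genes.

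Itgax codes for the integrin chain CD11c. Its CPM fell from 92.3, 137 and 123 at P7 to 10.2, 3.25, 7.63 and 7.62 at P10, a 16.4-fold fall (log2 fold change -4.04, standard error 0.47, adjusted p = 9.1e-07, edgeR). Clec7a, the beta-glucan receptor dectin-1, had 312, 375 and 370.4 CPM at P7 and 63.7, 53.5, 101 and 52.7 CPM at P10 (log2 fold change -2.38, standard error 0.26, adjusted p = 3.5e-07, edgeR). Neither gene overlapped between the ages, and both were called in each fit that left out 1 library.

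Igf1, a growth factor that acts on oligodendrocytes and neurons, had 310.4, 402 and 405 CPM at P7 and 66.2, 62.1, 96.4 and 86.9 CPM at P10, so that the 2 ages did not overlap. Its log2 fold change was -2.26 (standard error 0.45, adjusted p = 0.0017, edgeR). Its call was lost without P7 replicate 2, P7 replicate 3 or P10 replicate 2, with adjusted p-values from 0.011 to 0.014, and without P10 replicates 3 and 4 together (adjusted p = 0.012). Anxa5, a phosphatidylserine-binding annexin, fell by 2.35 on the log2 scale (standard error 0.20, adjusted p = 3.5e-09, edgeR), from 387, 372 and 467 CPM to 79.6, 60.6, 112 and 69.2 CPM. Lgals3, the galactose-binding lectin galectin-3, had 47.3, 43.0 and 106 CPM at P7 and 5.43, 2.76, 16.1 and 3.20 CPM at P10, with P7 replicate 3 the highest of all (log2 fold change -3.25, standard error 0.70, adjusted p = 0.0035, edgeR). The call of Lgals3 was lost without P7 replicate 3 (log2 fold change -2.66, adjusted p = 0.049) and without P10 replicate 1, 2 or 4 (adjusted p from 0.018 to 0.022).

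The other 5 priming genes did not pass either rule with edgeR, although 10 of the 12 had lower values at an unadjusted p under 0.05. limma-voom called 9 of the 12, among them Mrc1, Gas7 and F13a1 of these 5 (adjusted p = 1.3e-05, 0.00081 and 0.00057), and DESeq2 called 7. Fitted to these 2 groups only, edgeR also called Mrc1 (adjusted p = 0.0098), and Gas7 passed the wider rule (adjusted p = 0.025). Mrc1, the mannose receptor, was at 411, 529.8 and 411 CPM at P7 and at 185, 229, 138 and 202 CPM at P10 without overlap (log2 fold change -1.26, adjusted p = 0.16, edgeR). Gas7 (log2 fold change -1.15), Cd36 (-1.95) and F13a1 (-3.47) also had no overlap, and adjusted p-values from 0.18 to 0.62. Axl, a receptor for apoptotic cells, was at 70.1 ± 2.86 (SD, n = 3) CPM at P7 and 65.7 ± 15.0 (SD, n = 4) CPM at P10, and its libraries overlapped.

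**Figure D2:**
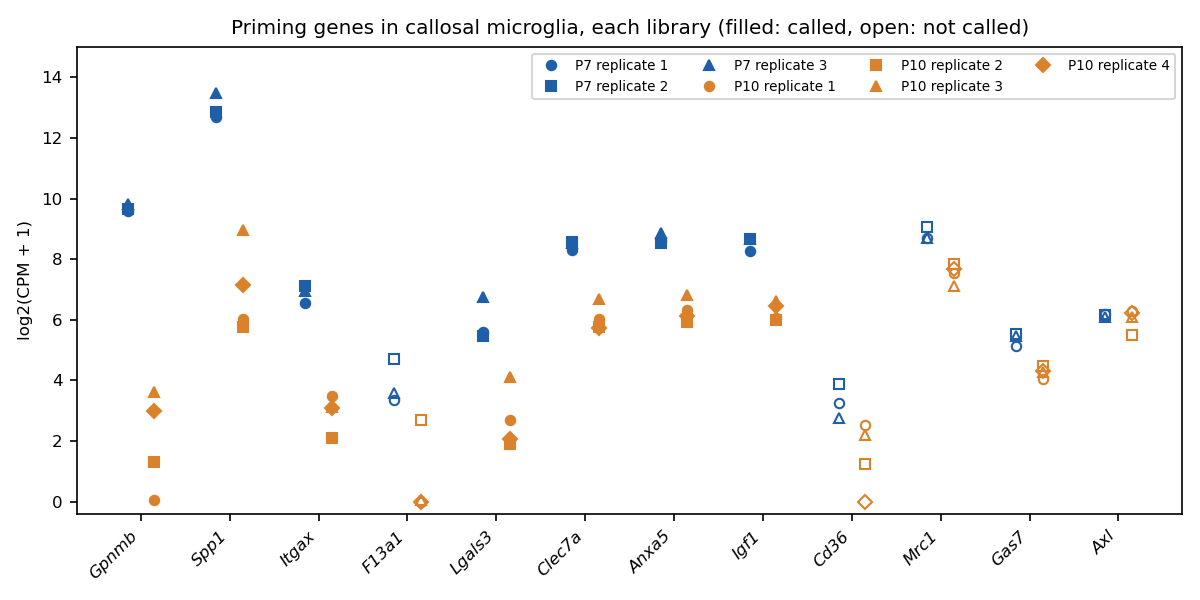
Expression of the 12 priming genes as log2(CPM + 1) in each CC library, P7 in blue and P10 in orange, with 1 symbol shape for each replicate and filled symbols for the 7 genes called. In 11 genes all P10 symbols lie below all P7 symbols, and Axl is the exception.

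The start regions of 5 of the genes that the results turn on are printed here so that the fall and the rise can be set against sequence. Each runs from 250 bases before to 50 bases after the start of a RefSeq transcript (GRCm38.p6), 5′ to 3′ on the strand of the gene. Capitals mark matches to any of 3 motifs searched on both strands, TGANTCA (the core bound by AP-1), CACGTG (an E-box core) and GAGGAAGT (a core bound by PU.1), none of which contains another. Gpnmb lies on the plus strand (chr6:49036268-49036567), as do Spp1 (chr5:104434861-104435160), Itgax (chr7:128129300-128129599) and Igf1 (chr10:87860861-87861160), and P2ry12, the homeostatic gene described further on, lies on the minus strand (chr3:59262936-59263235).
Gpnmb: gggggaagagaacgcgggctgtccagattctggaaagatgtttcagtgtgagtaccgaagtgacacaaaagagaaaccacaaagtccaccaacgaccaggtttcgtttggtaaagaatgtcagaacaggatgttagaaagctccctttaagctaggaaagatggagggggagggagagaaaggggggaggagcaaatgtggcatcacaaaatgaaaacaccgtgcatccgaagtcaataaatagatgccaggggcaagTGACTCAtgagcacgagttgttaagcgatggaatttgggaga
Spp1: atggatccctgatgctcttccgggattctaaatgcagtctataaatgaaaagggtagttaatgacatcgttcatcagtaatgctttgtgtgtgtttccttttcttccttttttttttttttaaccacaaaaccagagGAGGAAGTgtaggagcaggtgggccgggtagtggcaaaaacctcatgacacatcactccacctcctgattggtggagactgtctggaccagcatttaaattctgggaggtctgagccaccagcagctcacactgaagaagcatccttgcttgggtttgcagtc
Itgax: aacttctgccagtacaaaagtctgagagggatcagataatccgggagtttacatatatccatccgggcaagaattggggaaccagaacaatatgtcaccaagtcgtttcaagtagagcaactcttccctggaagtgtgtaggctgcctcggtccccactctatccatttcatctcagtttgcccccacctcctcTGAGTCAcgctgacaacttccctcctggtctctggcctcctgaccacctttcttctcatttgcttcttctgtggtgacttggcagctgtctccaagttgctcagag
Igf1: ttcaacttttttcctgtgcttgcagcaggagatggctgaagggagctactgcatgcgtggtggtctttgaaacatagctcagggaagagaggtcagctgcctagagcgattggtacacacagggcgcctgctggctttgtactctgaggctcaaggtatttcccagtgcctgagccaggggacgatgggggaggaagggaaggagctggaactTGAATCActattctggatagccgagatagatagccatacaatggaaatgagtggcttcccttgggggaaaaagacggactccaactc
P2ry12: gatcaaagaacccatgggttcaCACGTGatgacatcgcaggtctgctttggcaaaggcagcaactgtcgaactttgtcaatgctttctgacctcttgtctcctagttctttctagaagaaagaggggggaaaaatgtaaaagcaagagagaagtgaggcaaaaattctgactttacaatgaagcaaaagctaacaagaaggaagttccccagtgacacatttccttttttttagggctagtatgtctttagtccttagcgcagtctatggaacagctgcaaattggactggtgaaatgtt
TGANTCA was found at base 259 of the Gpnmb window, 8 bases into the transcript, at base 195 for Itgax and at base 214 for Igf1. GAGGAAGT was found at base 138 for Spp1, and CACGTG at base 23 for P2ry12. RefSeq gives Spp1 a second start (chr5:104435942-104436241), not printed here, whose window held 0 matches to the 3 motifs. A RefSeq start was matched for 90 of the 113 genes called lower (112 start regions) and for 48 of the 83 called higher (74 start regions). TGANTCA occurred in 8.04% of the start regions of genes called lower and in 9.46% of those called higher, against 7.81% of all 32851 start regions and 5.4% of the 15417 start regions of genes tested. CACGTG occurred in 9.82% and 9.46%, against 7.15% of all and 9.24% of those of genes tested, and GAGGAAGT in 6.25% and 5.41%, against 3.2% and 3.1%. These are matches of letters and were not tested as sites.

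Most disease-associated microglia genes fell as well. Of 46 tested, which include 7 of the 12 priming genes, 14 were called lower, 29 passed the wider rule as lower and 1 (Cd34) as higher, with a median log2 fold change of -0.80. Over all genes tested, 0.54% were called lower, and 2.9% passed the wider rule as lower and 2.01% as higher. Of the 39 that are not priming genes, 8 were called lower and 23 passed the wider rule as lower. In 34 of the 46 every P10 library was below every P7 library (9.64% of all genes did so). Without P10 replicates 3 and 4 the wider rule held for 28 as lower (1.89% of all genes tested). The increase of Cd34 passed neither then nor without P7 replicate 1 or 3. Trem2, the lipid-sensing receptor through which the state is entered in disease, had 1886, 1697 and 1796 CPM at P7 and 1824, 1664, 1686 and 1951 CPM at P10 (log2 fold change -0.01, adjusted p = 1.0, edgeR). Apoe, a carrier of lipids, had 20319 ± 1563 (SD, n = 3) CPM at P7 and 16769 ± 1444 (SD, n = 4) CPM at P10, with a log2 fold change of -0.28 (adjusted p = 0.57, edgeR).

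Among the called members of that list, Csf1, the growth factor for microglia themselves, fell from 145, 186 and 236 CPM to 36.8, 56.0, 70.9 and 33.9 CPM (log2 fold change -1.94, standard error 0.32, adjusted p = 0.00017, edgeR). Ccl6, a chemokine of macrophages, fell from 1067, 1141 and 1215 CPM to 492, 469.8, 401 and 449 CPM, and Lyz2, the lysozyme of macrophages, from 1925, 1994 and 2059 CPM to 959, 889.7, 860.1 and 831 CPM. Both sets of libraries were tightly grouped, and the log2 fold changes were -1.33 and -1.17 (adjusted p = 1.4e-09 and 1.2e-06, edgeR). Lilrb4a, an inhibitory receptor, had 18.8, 27.3 and 39.3 CPM at P7 and 1.22, 0, 0 and 1.79 CPM at P10 (adjusted p = 0.00013, edgeR), and its exons overlap those of the close paralogue Lilr4b, so its level is uncertain. Dkk2, a secreted regulator of Wnt signalling, had 6.24, 18.8 and 29.0 CPM at P7 and at most 1 read in each P10 library (adjusted p = 9.7e-05, edgeR). Slpi, a secreted inhibitor of serine proteases outside the list, had one of the steepest falls of the abundant genes, from 163, 129 and 164 CPM to 3.62, 5.10, 0.894 and 5.43 CPM (log2 fold change -5.34, standard error 0.79, adjusted p = 8.9e-05, edgeR).

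Part of the genes for the uptake and storage of lipid fell. Of 32 tested, 3 were called lower, 10 passed the wider rule as lower and 0 as higher (edgeR, with 1 higher and 13 lower at an unadjusted p under 0.05, and 1 higher by DESeq2 and by limma-voom), with a median of -0.73. limma-voom called 7 lower and DESeq2 5. The count of 10 was 5 without P7 replicate 1 or P10 replicate 2, 6 without P7 replicate 2 or P7 replicate 3, and 8 without P10 replicates 3 and 4, where 5 were called. Fabp5, a carrier of fatty acids inside the cell, fell from 95.5, 114 and 167 CPM to 13.9, 10.4, 23.6 and 9.84 CPM, which is 8.71-fold (log2 fold change -3.12, standard error 0.47, adjusted p = 4.8e-05, edgeR). Plin2, which coats lipid droplets, fell from 559, 471 and 620.3 CPM to 221, 183, 291 and 192 CPM (log2 fold change -1.31, adjusted p = 7.7e-06, edgeR). Lpl, the lipase that frees fatty acids from lipoproteins, fell from 1117, 1155 and 1422 CPM to 487, 561, 678 and 544 CPM (log2 fold change -1.12, adjusted p = 0.00025, edgeR). The log2 fold change of Lpl came under the limit for a call without P7 replicate 3 (-0.95) and without P10 replicate 1 (-0.99). Of 24 genes of cholesterol synthesis, 3 (Hmgcs1, Insig1 and Pmvk) passed the wider rule as lower (edgeR), against 6 by limma-voom and 5 by DESeq2, and 1 without P7 replicate 1, P7 replicate 3, P10 replicate 2 or P10 replicate 4. Insig1 did not pass without P10 replicates 3 and 4.

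Part of the matrix, adhesion and annexin genes fell. Of 40 tested, 11 were called lower, 19 passed the wider rule as lower, and 1, Sparc, rose, with a median of -1.49. These include 4 priming genes, and of the other 36, 8 were called lower and 16 passed the wider rule as lower. Lgals1, galectin-1, had 122, 120.3 and 161 CPM at P7 and 27.3, 13.4, 27.6 and 10.5 CPM at P10 (log2 fold change -2.77, standard error 0.36, adjusted p = 5.9e-06, edgeR). S100a1, a calcium-binding protein, had 127, 136 and 126 CPM at P7 and 27.1, 25.3, 31.9 and 19.0 CPM at P10 (log2 fold change -2.33, adjusted p = 6.5e-08, edgeR). In both genes the highest P10 library was far below the lowest P7 library. Gsn (gelsolin, which severs actin filaments), Emp3, Crip1, Capg (an actin-capping protein) and Anxa4 were also called lower, with log2 fold changes of -2.37, -1.17, -1.61, -1.05 and -1.04. Crip1 and Capg were not called without P10 replicates 3 and 4 (adjusted p = 0.013 for Crip1, log2 fold change -0.84 for Capg). Capg came under a log2 fold change of 1 in size without P7 replicate 1, P7 replicate 3, P10 replicate 2 or P10 replicate 3 (-0.99 to -0.86), and Anxa4 without P7 replicate 3, P10 replicate 1, P10 replicate 2 or P10 replicate 4 (-0.98 to -0.80). Emilin2, an extracellular glycoprotein, had 11.5, 7.03 and 10.3 CPM at P7 and at most 3 reads in each P10 library, and was not called without P10 replicates 3 and 4, nor without P10 replicate 1 or 4 alone (adjusted p = 0.0021 with all libraries, 0.052 without replicates 3 and 4 together, and 0.01 to 0.011 without replicate 1 or 4 alone, edgeR).

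Lysosomal genes, which serve the breakdown of engulfed material, moved differently in the CC and the Cx. In the CC, 24 of 56 passed the wider rule as lower and 7 as higher, with a median log2 fold change of -0.32, and 14 passed as lower without P7 replicate 1 and 4 as higher without P10 replicates 3 and 4. In the Cx, 4 passed as lower and 19 as higher, with a median of 0.19 (over all genes, 2.7% passed as lower and 2.31% as higher in the Cx). In the Cb, 12 passed as lower and 4 as higher, with a median of -0.19 (over all genes, 1.71% and 0.951%). The test of the difference itself, the change in the CC minus that in the Cx, passed the wider rule for 17 of the 56 as more negative in the CC, against 61 of all genes tested (0.292%). The difference was below 0 for 52 of the 56 genes and for 10436 of the 20917 genes tested. In 14 of the 17 the log2 fold change was below 0 in the CC and above 0 in the Cx. The count of 17 was 16 without P10 replicates 3 and 4 of the CC, 17 with limma-voom and 21 with DESeq2. It was 8 when only the 4 groups compared were fitted. It was 10 without CC P10 replicate 1, 10 without CC P7 replicate 1, 11 without CC P7 replicate 3, 9 without Cx P10 replicate 1, 11 without Cx P10 replicate 4 and 10 without Cx P7 replicate 1. The Cx P7 libraries held 23.3 to 24.9% of their reads in their 50 most abundant genes, against 28.5 to 31.2% in the other P7 and P10 libraries. The part of this in the differences from the Cx, here and below, was not tested.

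Ctsb, the protease cathepsin B, and Atp6v1a, a subunit of the proton pump, were called. Ctsb had 24981, 23737 and 24361 CPM at P7 and 10437, 9909, 11264 and 10187 CPM at P10 in the CC (log2 fold change -1.22, standard error 0.07, adjusted p = 3.1e-13, edgeR). In the Cx it was at 9800.1 ± 1342 (SD, n = 3) CPM at P7 and 7316 ± 95.3 (SD, n = 4) CPM at P10, and the change in the CC was more negative by 0.80 on the log2 scale (standard error 0.10, adjusted p of the difference = 1.1e-05, edgeR). The call of Ctsb was lost with limma-voom (adjusted p = 0.015). The exons of Ctsb overlap those of Fdft1 on the other strand. Atp6v1a had 191, 207 and 252 CPM at P7 and 128, 100.4, 119 and 82.8 CPM at P10 (log2 fold change -1.01, adjusted p = 0.0015, edgeR), and was not called without P7 replicate 2, P7 replicate 3, P10 replicate 2 or P10 replicate 4 (log2 fold change -0.996 to -0.84), nor without P10 replicates 3 and 4 (-0.91), with DESeq2, with RLE factors, under either other filter, with the replicate block or when only the 2 groups were fitted (-0.985 to -0.962).

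Ctsl, cathepsin L, fell from 9099.8, 8280.3 and 9092 CPM to 4687, 4895, 4545 and 4860.2 CPM in the CC (log2 fold change -0.89), while the Cx had 3399.6 ± 136 (SD, n = 3) CPM at P7 and 3600.4 ± 149 (SD, n = 4) CPM at P10 (log2 fold change 0.08). The difference was -0.98 (standard error 0.10, adjusted p = 9.8e-07, edgeR). Hexa, a subunit of beta-hexosaminidase, fell in the CC (log2 fold change -0.65) and rose in the Cx (0.23), with a difference of -0.89 (adjusted p = 4.9e-07, edgeR). Ctsd, cathepsin D, likewise fell in the CC (-0.48, from 15664 to 11198 CPM) and rose in the Cx (0.44, from 7867 to 10669 CPM), with a difference of -0.92 (adjusted p = 6.6e-06, edgeR). At P10 the mean CPM of Ctsd in the CC and in the Cx lay close together.

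The membrane protein Lamp1 (difference -0.74, adjusted p = 1.1e-05, edgeR) and progranulin, Grn (difference -0.75, adjusted p = 1.4e-05, edgeR), also differed between the regions. Both fell in the CC (log2 fold changes -0.59 and -0.28), while in the Cx Grn rose (0.47) and Lamp1 did not pass (0.15, adjusted p = 0.22, edgeR). A few lysosomal genes rose in the CC, among them the protease Lgmn, from 6557, 6330.1 and 6139 CPM to 8198, 8269.7, 8706 and 10313 CPM (log2 fold change 0.48, adjusted p = 0.0027, edgeR). Soat1, which esterifies cholesterol for storage and belongs to the lipid list, had one of the clearest differences between the regions. It fell from 312, 324 and 288 CPM to 147, 144, 155 and 181 CPM in the CC and was at 126 ± 7.89 (SD, n = 3) and 158 ± 11.7 (SD, n = 4) CPM in the Cx, with a difference of -1.30 (standard error 0.14, adjusted p = 3.3e-06, edgeR).

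**Figure D3:**
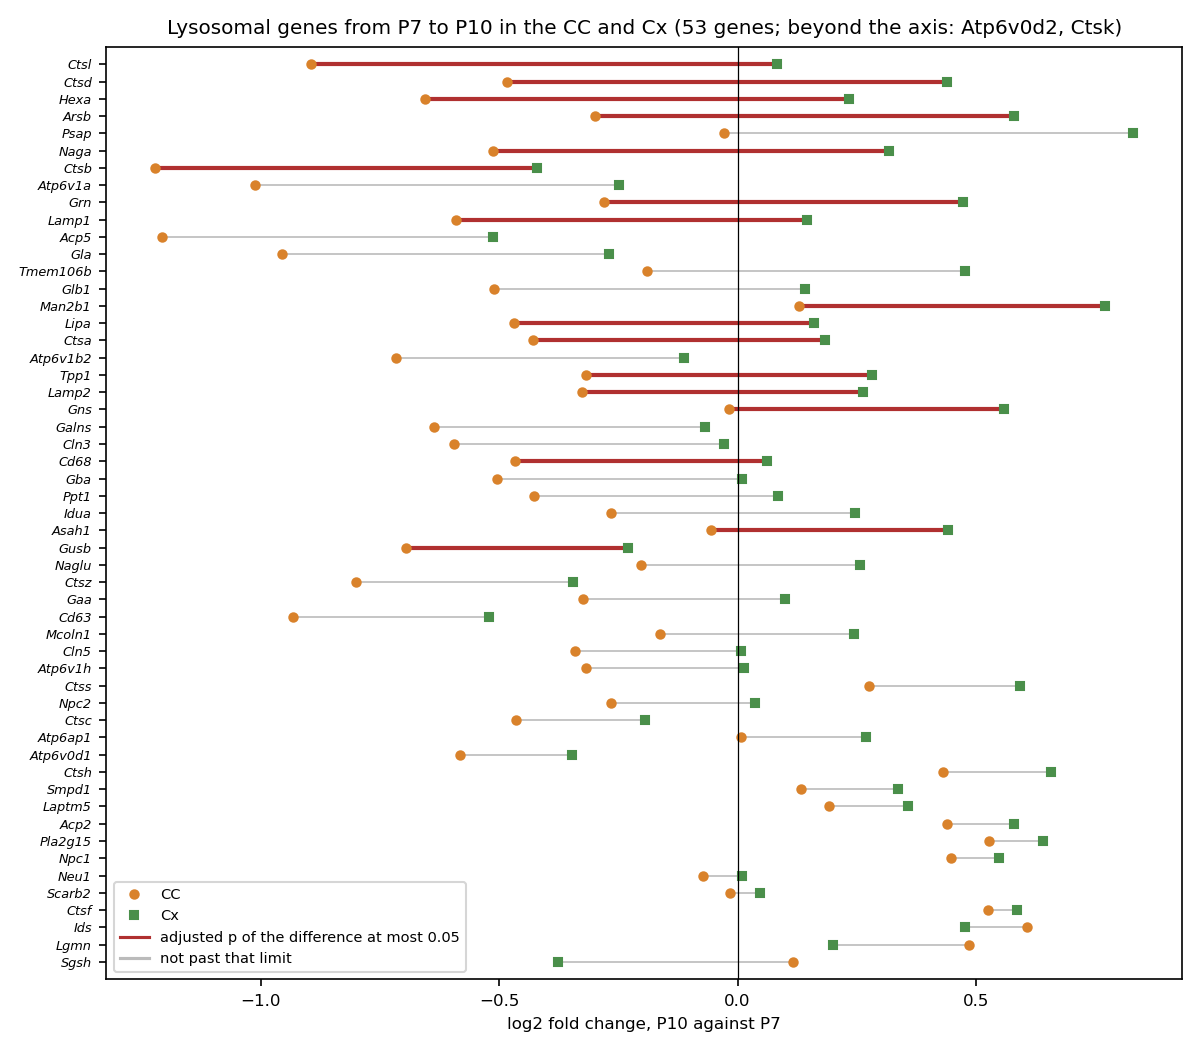
Log2 fold change from P7 to P10 of 53 lysosomal genes in the CC (circles) and in the Cx (squares), joined by a red line where the adjusted p-value of the difference was 0.05 or less, with Atp6v0d2 and Ctsk left out because they lie beyond the axis and 1 further gene not shown. Most circles lie to the left of their square, and in 14 of the 17 genes joined in red the circle is below 0 and the square above 0.

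Most homeostatic genes rose. Of 42 tested, 34 passed the wider rule as higher and 0 as lower (edgeR, with 37 higher and 0 lower at an unadjusted p under 0.05), 11 were called, and 36 had every P10 library above every P7 library (4.89% of all genes did so). The median log2 fold change was 0.61, and the summed CPM of the 42 genes was 72371 to 78283 at P7 and 115124 to 130032 at P10. Without P10 replicates 3 and 4, 31 passed the wider rule (1.78% of all genes tested passed it as higher). limma-voom passed 26 and DESeq2 36, with 0 lower in both.

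Selplg, the P-selectin ligand, rose from 952, 773 and 807 CPM to 2999.8, 3363, 3438 and 3741 CPM, or 4.01-fold (log2 fold change 2.00, standard error 0.10, adjusted p = 2e-14, edgeR). Tmem119, a membrane protein used as a marker of microglia, rose from 1159, 1016 and 909.6 CPM to 2803, 3087, 2993 and 3746 CPM (log2 fold change 1.62, standard error 0.11, adjusted p = 3.6e-11, edgeR). Adgrg1, an adhesion receptor also known as GPR56, rose from 361, 362 and 297 CPM to 954, 1028, 983 and 1026 CPM (log2 fold change 1.55, standard error 0.10, adjusted p = 4.5e-12, edgeR). In these 3 genes the lowest P10 library was more than 2 times the highest P7 library, and the calls held in each fit that left out a library.

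P2ry12, the receptor for ADP with which microglia sense injury, had 5080.4, 4801 and 4362 CPM at P7 and 9944, 10651, 9494 and 11457 CPM at P10 (log2 fold change 1.13, standard error 0.10, adjusted p = 4.2e-09, edgeR). Sparc, a secreted glycoprotein, had 5086, 4706 and 4996 CPM at P7 and 10448, 10560.5, 10118 and 11411 CPM at P10, and Ecscr rose from 168, 162 and 132 CPM to 382, 351, 346 and 445 CPM. Their log2 fold changes were 1.11 and 1.31. Upk1b, a tetraspanin, had the largest change of the list at a low level, from 2.44, 1.28 and 6.92 CPM to 13.7, 25.0, 14.4 and 18.0 CPM (log2 fold change 2.31, standard error 0.39, adjusted p = 0.0002, edgeR). The calls of P2ry12 and Upk1b were lost with limma-voom, and that of Upk1b also when only the 2 groups were fitted. The exons of P2ry12 overlap those of Med12l on the other strand. Some other genes named here also share exons with neighbours, which is not stated for each.

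Smaller increases came from Cx3cr1, the fractalkine receptor (log2 fold change 0.63, adjusted p = 3.7e-08, edgeR), Csf1r, the receptor on which microglia depend for survival (0.52), Olfml3 (0.49), Siglech (0.39) and Sall1, a transcription factor of microglial identity (0.56). Genes of the list with values close to no change were Fcrls, with 6796 ± 229 (SD, n = 3) CPM at P7 and 7597 ± 448 (SD, n = 4) CPM at P10, and the transcription factors Mef2a (log2 fold change -0.12), Maf (-0.04) and Mef2c (0.04). At P42 Selplg was at 8787 ± 638 (SD, n = 4) CPM and Tmem119 at 6339.8 ± 566 (SD, n = 4) CPM, with every P42 library of both genes above every P10 library. P2ry12 was at 10649 ± 1539 (SD, n = 4) CPM at P42 and Adgrg1 at 1013 ± 78.6 (SD, n = 4) CPM, means close to those at P10.

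The homeostatic genes rose in the other regions too. In the Cx 35 of the 42 passed the wider rule as higher and in the Cb 27, with medians of 0.64 and 0.45 and 0 lower in both. Against the Cb, 3 genes rose more in the CC, namely Selplg (difference 0.76, adjusted p = 0.0078), Adgrg1 (0.75, adjusted p = 0.0078) and Ecscr (0.85, adjusted p = 0.0046, all from edgeR). The count of 3 was 8 by DESeq2, and 2 by limma-voom, without P10 replicates 3 and 4 of the CC, without CC P7 replicate 3, without Cb P7 replicate 1 and when only the 4 groups were fitted, and 18 of the 42 were more positive in the CC at an unadjusted p under 0.05. Over all genes the difference from the Cb passed as more positive for 7 (0.0335%). At P7 Selplg was at 844 ± 95.0 (SD, n = 3) CPM in the CC against 1702 ± 213 (SD, n = 3) in the Cb, and at P10 at 3385 ± 305 (SD, n = 4) against 4047 ± 217 (SD, n = 4).

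**Figure D4:**
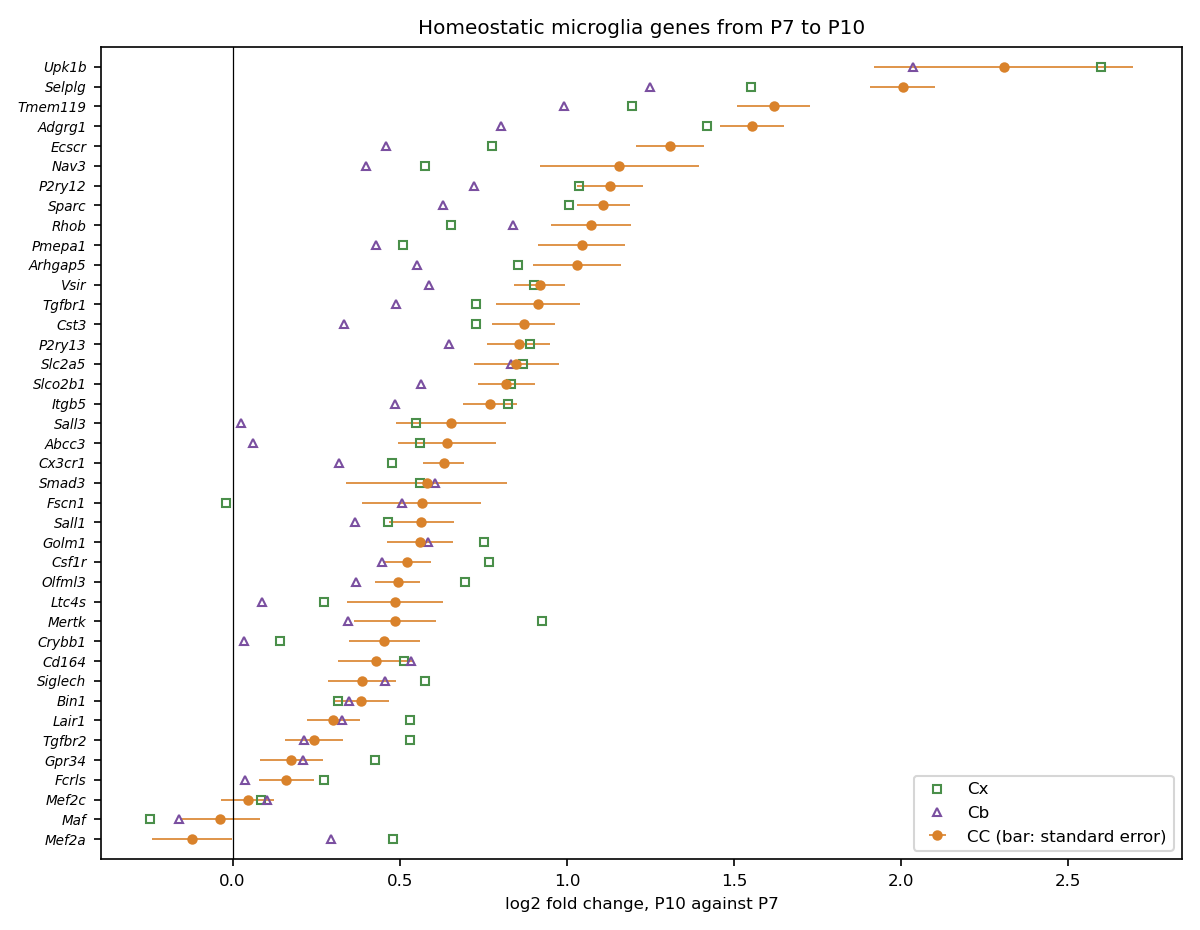
Log2 fold change from P7 to P10 for 40 of the 42 homeostatic genes in the CC (filled circles, bars for the standard error), Cx (open squares) and Cb (open triangles), ordered by the value in the CC. In the CC 38 of the 40 circles lie above 0, and the genes with the largest values are Upk1b, Selplg, Tmem119 and Adgrg1.

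The genes of TGF beta signalling, on which the homeostatic state of microglia depends, had 6 members of 29 past the wider rule as higher and 2 as lower, with a median of 0.36 (0.24 with genes not read at one age set to their limit of detection). The count of 2 was 1 without any 1 library other than P7 replicate 2, and 1 without P10 replicates 3 and 4. The receptor Tgfbr1 rose from 635, 764 and 537 CPM to 1058, 1353, 1284 and 1166 CPM (log2 fold change 0.91, adjusted p = 1.5e-05, edgeR), the co-receptor Eng from 32.8, 22.2 and 19.0 CPM to 53.5, 64.7, 71.6 and 42.8 CPM (1.24, adjusted p = 0.00014) and Pmepa1, a target gene that damps the pathway, from 143, 199 and 177 CPM to 309, 381, 303 and 436 CPM (1.04, adjusted p = 2.8e-06). The log2 fold change of Pmepa1 was 0.98 without P7 replicate 1 and 0.95 without P10 replicate 4, under the limit for a call. The exons of Eng overlap those of Fpgs on the other strand. The inhibitor Smad7 rose as well (0.97). The ligand Tgfb1 was at 179.5 ± 2.95 (SD, n = 3) CPM at P7 and 201 ± 14.9 (SD, n = 4) CPM at P10, with a log2 fold change of 0.16 (adjusted p = 0.58, edgeR). Tgfbi, a matrix protein named for its induction by the ligand, fell (log2 fold change -0.92).

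Of 60 transcription factors of macrophages, 6 passed as higher and 2, Hif1a and Myc, as lower. limma-voom passed 5 as higher and 4 as lower, and DESeq2 7 and 4. Neither Hif1a nor Myc passed without P7 replicate 3 or without P10 replicate 1. Jun, a subunit of AP-1, was the only one called with all libraries (2 were called higher without P10 replicate 2 or 3 and 3 without P7 replicate 2, and DESeq2 called 3 higher and 2 lower), with 78.1, 86.8 and 94.6 CPM at P7 and 207, 205, 209 and 197 CPM at P10 (log2 fold change 1.24, standard error 0.13, adjusted p = 1.9e-07, edgeR), and Junb rose by 0.97 on the log2 scale. The exons of Jun overlap those of its antisense gene Junos. Both Jun and Junb belong to the genes that are induced when tissue is dissociated. Of 23 such genes, 6 passed as higher and 0 as lower (edgeR, with 12 higher and 2 lower at an unadjusted p under 0.05, and 9 higher and 0 lower by DESeq2). Their summed CPM was 739 to 886 at P7 and 961 to 1153 at P10. The part of dissociation in these increases was not tested.

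Chemokine receptors and genes of migration moved in both directions. Of 45 tested, 12 passed as higher and 6 as lower. C5ar2, a receptor for the complement fragment C5a, rose from 19.6, 25.9 and 26.5 CPM to 56.0, 56.9, 57.7 and 48.2 CPM (log2 fold change 1.19, adjusted p = 5e-05, edgeR), and Cmklr1, the receptor for chemerin, from 19.7, 18.4 and 14.6 CPM to 34.2, 37.9, 36.3 and 33.0 CPM (1.01, adjusted p = 3.5e-05, with a log2 fold change of 0.94 without P7 replicate 3). Itga4, the integrin chain that binds VCAM-1, fell from 1.20, 5.01 and 7.65 CPM to 0.208, 0.0614, 0.0298 and 0.0577 CPM (adjusted p = 0.00091, edgeR), and was not called without P10 replicates 3 and 4 (adjusted p = 0.035). Its exons overlap those of Cerkl on the other strand, and the strand used in counting is not given in the sources used here.

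Of 38 chemokines and cytokines, 7 passed as lower and 2, Ccl12 and Il16, as higher, and without P10 replicates 3 and 4 only 4 passed as lower and 0 as higher. Neither increase passed without P7 replicate 3. Cxcl14, a chemokine, had 0.785, 2.83 and 4.77 CPM at P7 and no read in any P10 library, at least 31.3-fold higher at P7 against a floor of 3 reads in each P10 library. It was not called without P10 replicates 3 and 4 (adjusted p = 0.004 with all libraries and 0.059 without these, edgeR), without P7 replicate 3, or without any 1 of the P10 libraries (adjusted p from 0.013 to 0.016). Ccl3 and Ccl4, inflammatory chemokines, had overlapping libraries (log2 fold changes -0.90 and 0.32, adjusted p = 0.25 and 0.77, edgeR).

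Genes for the uptake of particles moved both ways. Of 49 phagocytic receptors and engulfment genes, 9 passed as higher and 8 as lower, with a median of -0.09. Of further phagocytosis genes that the study names, Abca1 (log2 fold change -0.37, adjusted p = 0.3, edgeR) and Grk6 (0.29, adjusted p = 0.64) overlapped between the ages. Scarb1 fell (-0.57, adjusted p = 0.032, edgeR) but passed in 0 of the 7 fits that left out 1 library. Mertk, a receptor for apoptotic cells, rose from 285, 299 and 269 CPM to 349, 451, 348 and 445 CPM (log2 fold change 0.49, adjusted p = 0.016, edgeR), while its ligand Gas6 fell from 1008, 1134 and 1030.4 CPM to 585, 612, 513 and 678 CPM (-0.82, adjusted p = 0.00014). The complement receptor chain Itgam (0.64) and C1qa (0.53), which starts the classical pathway, rose, and C3ar1, the receptor for C3a, fell (-0.67). Of 29 genes of antigen presentation, 4 rose, H2-Oa, H2-DMa, H2-DMb1 and H2-Ob, all of which serve peptide loading in the class II pathway, while the class II chain H2-Aa itself had 1 read in all P10 libraries together. H2-Ob did not pass by limma-voom, when only the 2 groups were fitted or without P10 replicates 3 and 4. Nor did it pass without P10 replicate 4 or P7 replicate 2 alone. Of 49 pattern recognition and Fc receptors, 6 rose and 5 fell (3 without P7 replicate 1, P7 replicate 2 or P10 replicate 2, and 3 without P10 replicates 3 and 4 together), and under the wider rule limma-voom passed 3 as higher and 11 as lower and DESeq2 8 and 5, among them Tlr9, a sensor of DNA that rose from 1.94, 2.63 and 3.43 CPM to 6.26, 6.14, 13.1 and 9.18 CPM and was not called without P10 replicates 3 and 4 or without P7 replicate 1 (adjusted p = 0.0015 with all libraries, 0.046 without the former and 0.017 without the latter, edgeR).

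Part of the genes of glycolysis fell. Of 33 genes of glycolysis and the response to hypoxia, 5 were called lower, 14 passed the wider rule as lower and 1 (P4ha1) as higher, with a median of -0.83. Without P10 replicates 3 and 4, 13 passed as lower. The calls numbered 2 without P7 replicate 3 and 3 without P10 replicate 1 or 2. Ldha, which makes lactate, fell from 612, 658 and 817 CPM to 304, 288, 419 and 325 CPM (log2 fold change -1.06, standard error 0.12, adjusted p = 7.6e-07, edgeR). Gpi1, the enzyme of the second step of glycolysis, fell from 223, 218 and 279 CPM to 106, 93.5, 127 and 112 CPM (-1.13, adjusted p = 5.8e-07), and Pfkfb3, which raises the flux through phosphofructokinase, from 88.7, 95.6 and 97.8 CPM to 43.8, 31.8, 36.1 and 46.7 CPM (-1.25, adjusted p = 4.1e-06). P7 replicate 3 had the highest level of each of these 3 genes. Without it the log2 fold changes of Ldha and Gpi1 were -0.88 and -0.96, and that of Ldha was also under 1 in size without P10 replicate 1 (-0.96) or 2 (-0.94).

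Tpi1 (log2 fold change -0.96), Eno1 (-0.95), Pkm (-0.94) and Gapdh (-0.93) fell as well, and Hif1a, the transcription factor that induces them under hypoxia, fell by 0.80 on the log2 scale (adjusted p = 0.007, edgeR). The glucose transporter Slc2a1 was at 73.7, 69.6 and 104 CPM at P7 and 73.4, 75.1, 124 and 75.1 CPM at P10, with overlap. In the Cx 6 of the 33 genes passed as lower and in the Cb 11, with medians of -0.18 and -0.42, and the difference between the CC and the Cx passed for 1, Pfkfb3 (difference -1.12, adjusted p = 0.017, edgeR). Many glycolytic genes have near-identical processed copies in the genome, and the authors discarded reads that mapped to several places, so levels such as the 41.2 CPM of Gapdh are uncertain.

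Other metabolic genes gave fewer changes. Of 32 genes of iron, haem and oxidative stress, 7 passed as lower (4 without P7 replicate 3) and 1, the iron carrier Trf, as higher. Ftl1, the light chain of ferritin, was the only one called, with 1198, 1063 and 1229 CPM at P7 and 592, 475, 618 and 528 CPM at P10 (log2 fold change -1.07, adjusted p = 2.7e-06, edgeR). Without P7 replicate 1, P7 replicate 3 or P10 replicate 2 its log2 fold change was between -0.998 and -0.953, short of a call. Ftl1 shares exons with another gene on its strand and has many near-identical copies, so its level is uncertain. Psat1, an enzyme of serine synthesis, fell from 288, 312 and 339 CPM to 139, 134, 194 and 119 CPM (-1.09, adjusted p = 0.00029) and also in the Cx (-1.10) and Cb (-1.06). Its log2 fold change in the CC was -0.98 without P7 replicate 3 and -0.99 without P10 replicate 4.

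Genes of cell division did not pass the test. Of 36 genes of mitosis and 38 of DNA replication, 0 passed either rule (edgeR, with 5 and 7 lower and 0 higher at an unadjusted p under 0.05, and 2 and 2 lower by DESeq2 and 6 and 8 lower by limma-voom under the wider rule). All 36 mitosis genes and 35 of the 38 replication genes had a negative log2 fold change, with medians of -0.56 and -0.48. Without P10 replicate 3, 1 gene of each list was called lower, and without P10 replicates 3 and 4, 1 of each passed the wider rule as lower. Ccnb2, a cyclin of mitosis, had 155, 108 and 112 CPM at P7 and 54.4, 68.8, 69.9 and 61.8 CPM at P10, without overlap (log2 fold change -0.97, adjusted p = 0.16, edgeR). Mki67, the proliferation marker Ki-67, had 54.2, 92.0 and 78.2 CPM at P7 and 41.5, 61.6, 36.5 and 64.7 CPM at P10, with overlap. In the Cx the medians were -0.70 and -0.996, and 1 mitosis and 5 replication genes passed as lower. Pcna, the sliding clamp of replication, fell in the Cx (log2 fold change -1.07, adjusted p = 5.2e-06, edgeR) and had a value of -0.38 in the CC, and the difference did not pass (adjusted p = 0.17, edgeR).

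In the remaining lists few genes passed. Over all genes tested, 2.01% passed the wider rule as higher and 2.9% as lower. Of 56 apoptosis genes, 1 (Bcl2a1a, which has near-identical copies) passed as higher and 2 (Casp9 and Casp1) as lower, the median was -0.03, and none of the 3 passed without P7 replicate 1, while 1 gene passed as lower without P10 replicates 3 and 4. Of the 7 fits that left out 1 library, Casp9 passed in 3 and Casp1 in 1. limma-voom passed 0 as higher and 3 as lower, and DESeq2 3 and 3. Of 43 genes of the interferon response, 1 rose (Ly6e; 2 by DESeq2) and 1 fell (2 by limma-voom and by DESeq2), Ifitm2, from 16.2, 20.9 and 22.4 CPM to 4.03, 4.45, 3.37 and 3.52 CPM (log2 fold change -2.37, adjusted p = 0.00015, edgeR), while its paralogue Ifitm3 was at 9.50 ± 1.04 (SD, n = 3) CPM at P7 and 7.84 ± 1.66 (SD, n = 4) CPM at P10. Of 30 growth factors (1 higher and 3 lower by limma-voom, and 3 and 2 by DESeq2), Igf1 fell and the platelet-derived factors Pdgfa and Pdgfb rose (log2 fold changes 1.32 and 0.69, adjusted p = 0.0075 and 0.0018, edgeR). Pdgfa was not called without P10 replicate 1 or any 1 of the P7 libraries (adjusted p from 0.013 to 0.053). Of 29 potassium, sodium and calcium channels, 5 rose (3 without P10 replicates 3 and 4, and 8 by DESeq2) and 1, P2rx4, fell (not without any 1 library but P10 replicate 4), with Itpr2, the calcium channel of the endoplasmic reticulum, the only one called (1.05, and 0.99 without P7 replicate 3, 0.89 without P10 replicate 4 and 0.96 without P10 replicates 3 and 4).

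Among genes that averaged 10 CPM or more, the largest increases outside these lists were those of the unnamed transcript Gm44545, with 2.27, 2.34 and 1.37 CPM at P7 and 17.8, 18.8, 16.9 and 18.7 CPM at P10 (log2 fold change 3.18), and of Gm42497, with 4.05, 1.86 and 1.48 CPM at P7 and 16.8, 13.7, 22.6 and 15.5 CPM at P10 (2.80). Asap3, which acts on ARF GTPases (2.51), Lrba, a vesicle protein (1.84), Spint1, a protease inhibitor (1.78), the transcription factor Nfix (1.46) and the receptor tyrosine kinase Epha2 (1.46) were also among them. Asap3 owed part of its value to P10 replicate 4, at 13.4, 18.3, 18.1 and 57.0 CPM over the 4 libraries in order, and neither it nor Epha2 was called without P10 replicates 3 and 4 (adjusted p = 0.019 and 0.068, edgeR). By limma-voom Asap3, Lrba and Epha2 were not called. Epha2 was called in only 2 of the 7 fits that left out 1 library, those without P10 replicate 1 or 3, with adjusted p-values from 0.019 to 0.06 in the others. Among the largest decreases, Fam20c, a kinase of secreted proteins, fell from 36.7, 64.4 and 89.7 CPM to 5.78, 4.67, 19.9 and 4.94 CPM (-2.85, adjusted p = 0.0038, and 0.014 to 0.039 without any 1 library other than P7 replicate 1 or P10 replicate 3). Sorl1, a sorting receptor, fell from 25.4, 19.9 and 17.9 CPM to 3.65, 7.21, 0.0894 and 0.173 CPM, with P10 replicates 3 and 4 the lowest (adjusted p = 0.0099 with all libraries and 0.03 without these, edgeR), and it was called only without P10 replicate 2 among the fits that left out 1 library (adjusted p from 0.017 to 0.044 in the others). Sorl1 was also lost with RLE factors and without a filter, and both Sorl1 and Epha2 were lost with sex as a covariate, with the replicate block and when only the 2 groups were fitted. Mcoln3, a channel of endosomes, had no read at P10 and was at least 97.0-fold higher at P7 against a floor of 3 reads in each P10 library.

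Some calls of genes named here ended in another fit of the same libraries. The replicate block ended those of Anxa4, Atp6v1a, Bcl2a1a, Cmklr1, Epha2, Pdgfa, Pmepa1, Sorl1 and mt-Nd3. Limma-voom ended those of Spp1, Ctsb, P2ry12, Upk1b, Asap3, Lrba, Epha2, Pdgfa, Bcl2a1a and Tlr9, DESeq2 those of Atp6v1a and Anxa4, RLE factors those of Atp6v1a, Anxa4 and Sorl1, filterByExpr that of Atp6v1a, no filter those of Atp6v1a, Sorl1, Pdgfa and Bcl2a1a, and sex as a covariate those of Epha2, Sorl1 and Folr2. When only the CC libraries of both ages were fitted, which leaves fewer libraries to estimate the spread, the calls of Spp1, Lgals3, Csf1, Lilrb4a, Fam20c, Gsn, Emp3, Capg, Anxa4, Atp6v1a, Ldha, Psat1, Sorl1, Itga4, Cxcl14, Hacd4, Mcoln3 and mt-Nd3 among the lower genes ended, as did those of Upk1b, Pmepa1, Eng, Cmklr1, Pdgfa, Bcl2a1a, Tlr9, Itpr2, Gm42497, Gm28438, Asap3, Lrba, Spint1, Nfix and Epha2 among the higher ones.

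Markers of other cells were measured beside these results. Border macrophages, which live in the meninges and around vessels and share the sorting markers, had a summed CPM of 1289 to 1506 at P7 and 437 to 575 at P10 over 15 genes. Of the 14 tested, 5 passed the wider rule as lower, 3 of these were called, and 0 rose (edgeR, with 0 higher and 9 lower at an unadjusted p under 0.05). limma-voom passed 11 of the 14 as lower and called 7, and DESeq2 passed and called 5. Without P10 replicates 3 and 4, 2 passed, and without P7 replicate 1 or 2, 3 passed. Most of this sum came from Mrc1, Dab2 and Stab1, which microglia can also carry. Stab1, a scavenger receptor, fell from 406, 507 and 389.6 CPM to 130.1, 174, 187 and 165 CPM (log2 fold change -1.40, adjusted p = 1.7e-07, edgeR), Dab2, an adaptor of endocytosis, from 338, 319 and 407 CPM to 74.4, 114, 106 and 95.1 CPM (-1.87, adjusted p = 1.6e-05), and Folr2, a folate receptor, from 37.6, 35.9 and 42.4 CPM to 3.83, 3.29, 1.40 and 2.45 CPM (-3.81, adjusted p = 0.0091). The call of Folr2 was lost in each fit that left out 1 library (adjusted p from 0.022 to 0.044), with sex as a covariate, and without P10 replicates 3 and 4 (adjusted p = 0.12, past neither rule). The other 2 that passed were Ccl24, a chemokine, with 35.9, 23.8 and 19.0 CPM at P7 and 14.8, 9.24, 8.97 and 17.6 CPM at P10 (adjusted p = 0.022, edgeR), and Clec4n, a lectin receptor, with 5.00, 3.403 and 3.74 CPM at P7 and 0, 0, 0.0894 and 0 CPM at P10 (adjusted p = 0.035, edgeR). Neither passed without P10 replicates 3 and 4. Of the 7 fits that left out 1 library, Ccl24 passed in 3 and Clec4n in 1. Ccl24 also did not pass when only the 2 groups were fitted, nor Clec4n with the replicate block. Among the more restricted markers were Lyve1 at 5.10, 8.35, 1.88 and 0 CPM and Cd163 at 10.2, 9.82, 0 and 0 CPM at P10, both overlapping P7, Cd209a without a read in the 7 libraries, and Pf4 at 13.6, 20.2 and 18.6 CPM at P7 and 5.75, 10.3, 11.2 and 0.404 CPM at P10. The priming genes Mrc1 and F13a1 are markers of these cells too. The part of border macrophages in the lower values of these and the other priming genes was not tested.

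The other marker sums were small beside the homeostatic genes. Oligodendrocyte markers summed to 143 to 200 CPM at P7 and 163 to 302 CPM at P10, and 0 of 16 passed (edgeR, with 1 higher and 2 lower at an unadjusted p under 0.05, 1 higher by DESeq2, and 1 higher by edgeR without P10 replicates 3 and 4), with Mbp, a protein of myelin, at 36.4, 31.5 and 14.3 CPM at P7 and 94.1, 54.6, 61.7 and 24.9 CPM at P10. Astrocyte markers summed to 77.2 to 93.4 CPM at P7 and 122 to 151 CPM at P10, and 1 of 11 rose, Slc1a3, a glutamate transporter (log2 fold change 0.95, adjusted p = 8.2e-05, edgeR), while Gfap was below 10 CPM in all 7 libraries. Endothelial markers summed to 17.7 to 20.5 CPM at P7 and 30.7 to 62.6 CPM at P10, and 1 of the 9 tested passed as higher, the adhesion molecule Pecam1, which made up most of the sum. Pecam1 passed in only 2 of the 7 fits that left out 1 library, and neither by limma-voom nor without P10 replicates 3 and 4 (adjusted p = 0.16, edgeR). Of the 12 listed, 2 had no read. Neuronal markers summed to 5.21 to 12.5 CPM over the 7 libraries, monocyte markers to 6.49 to 14.7 CPM and neutrophil markers to 6.74 to 23.7 CPM, with 4 of 10 neutrophil and 3 of 10 monocyte markers without a read. Of these, 1 monocyte marker, Fn1, passed as lower by edgeR, and it kept this in only 1 of the 7 fits that left out 1 library and not without P10 replicates 3 and 4. Under the wider rule limma-voom and DESeq2 each passed 2 neuronal and 2 monocyte markers as lower, and for neutrophils limma-voom passed 1 as lower and DESeq2 1 as lower and 1 as higher. For lymphocytes limma-voom passed 1 as lower. Red cell markers were at 2.07 to 46.7 CPM at P7 and 0.0596 to 3.96 CPM at P10, and the lymphocyte sum of 136 to 183 CPM was almost all Cd79b, with 5 of 14 markers without a read. The part of other cell types in the results was not tested.

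Tests of the difference between regions singled out few genes. Against the Cx, 11 genes were called (0.0526% of those tested), all with a more negative change in the CC, while under the wider rule 61 genes were more negative and 5 (0.0239%) more positive. Among the 11 called, the largest were those of Spp1, at -5.49 in the CC and -0.21 in the Cx (difference -5.28, standard error 0.98, adjusted p = 0.0087, edgeR), and Itgax, at -4.04 in the CC and 0.33 in the Cx (difference -4.36, standard error 0.67, adjusted p = 0.0006, edgeR). The call of Spp1 was kept in 1 of 14 fits that left out a library, that without CC P10 replicate 3, with adjusted p-values from 0.013 to 0.053 in the others, and that of Itgax in all 14. At P7 the Cx held 79.7 to 97.7 CPM of Spp1 and 0.735 to 2.18 CPM of Itgax. Of the 12 priming genes, 3 passed the wider rule in this test, the third being Clec7a (difference -1.71, adjusted p = 0.035, edgeR), while limma-voom passed 1, as did edgeR without Cx P7 replicate 1. Of the 46 disease-associated microglia genes, 12 passed as more negative in the CC, and 7 without Cx P7 replicate 1. Aplp2, a relative of the amyloid precursor protein, had a difference of -1.32, with 537, 558 and 545 CPM at P7 and 231, 230.0, 333 and 233 CPM at P10 in the CC. Lag3, an inhibitory receptor, was at 64.2 ± 5.73 (SD, n = 3) CPM at P7 and 49.6 ± 3.30 (SD, n = 4) CPM at P10 in the CC, while in the Cx it was at 11.4 ± 1.17 (SD, n = 3) CPM at P7 and rose to 29.3 ± 6.62 (SD, n = 4) CPM (difference -1.74, adjusted p = 0.0006, edgeR). The calls of Soat1, described with the lysosomal genes, Lag3, Aplp2, Pld3 (difference -1.19) and Pmp22 (-1.17) held in each fit that left out 1 library. The other 4 were Chn2, Hacd4, Plek and Syngr1, with differences from -1.26 to -1.09. Of the 14 fits that left out a library, the call was lost in 9 for Chn2, 9 for Hacd4, 4 for Plek and 3 for Syngr1, with adjusted p-values of up to 0.057, 0.028, 0.019 and 0.013. Leaving out 1 library gave between 6 genes (without CC P7 replicate 3) and 13, with 7 without Cx P7 replicate 1.

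Against the Cb, 2 genes were called (0.00956%). Gm44545 rose in the CC and changed by 0.32 on the log2 scale in the Cb, short of the wider rule (difference 2.86, standard error 0.40, adjusted p = 0.002, edgeR). Gm44545 lies inside P2ry6, a receptor for UDP on the other strand that rose in the CC by 0.40 on the log2 scale. Its exons overlap those of no other gene counted. Whether unspliced RNA of P2ry6 was counted on it was not tested, and the strand setting is not given in the sources used here. Malat1, a nuclear noncoding RNA, had 702, 791 and 589 CPM at P7 and 1272, 997, 759.8 and 927 CPM at P10 in the CC, with overlap, while in the Cb it fell, with 1495 ± 306 (SD, n = 3) CPM at P7 and 547 ± 60.8 (SD, n = 4) CPM at P10 (difference 1.96, adjusted p = 0.0045, edgeR). Both calls were lost without CC P7 replicate 3 and without Cb P10 replicate 3 (adjusted p from 0.011 to 0.046), and that of Malat1 also without CC P7 replicate 1 or 2, Cb P10 replicate 2, or Cb P7 replicate 1 or 2 (adjusted p up to 0.019). Of the 12 priming genes, 0 passed in this test (edgeR, with 3 more negative in the CC at an unadjusted p under 0.05, and 1 under the wider rule by DESeq2, by limma-voom and by edgeR without CC P10 replicates 3 and 4). Gpnmb was at 221 ± 73.3 (SD, n = 3) CPM in the Cb at P7 and Spp1 at 4289 ± 1750.3 (SD, n = 3), and their log2 fold changes there were -4.02 and -4.27.

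One pair of genes separated P7 from the later ages in every region. Over all 33 libraries, mt-Nd3, a subunit of respiratory complex I encoded by the mitochondrial genome, and Gm28438, its nuclear copy on chromosome 1 (GRCm38, chr1:24612775-24613119, minus strand), were the only 2 genes that were read at P7 and at the limit of detection at P10 and P42 throughout, or the reverse. In the CC, mt-Nd3 had 2.19, 2.83 and 1.48 CPM at P7 and no read at P10, and Gm28438 had 0, 0.0321 and 0 CPM at P7 and 3.56, 2.52, 2.62 and 1.76 CPM at P10. Over the 345 bases that both annotated transcripts share they differ by 1 substitution, T3C (the base of mt-Nd3 first, counted from 1 at its 5′ end). The start of each, with that base in capitals, reads as follows.
mt-Nd3: atTaacctgtaca
Gm28438: atCaacctgtaca
The authors discarded reads that map to several places, so the counts of this pair rest on reads that tell the reference sequences of the copies apart. Which copy such a read was transcribed from was not tested, so the counts of Gm28438 need not come from the nuclear copy. The sources used here do not state whether the P7 animals were of the same mouse line or substrain as the others. Nor do they state whether the P7 libraries were prepared, sequenced or mapped apart. Any such difference cannot be told apart from age, for this pair or for any other gene compared between P7 and P10.

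**Figure D5:**
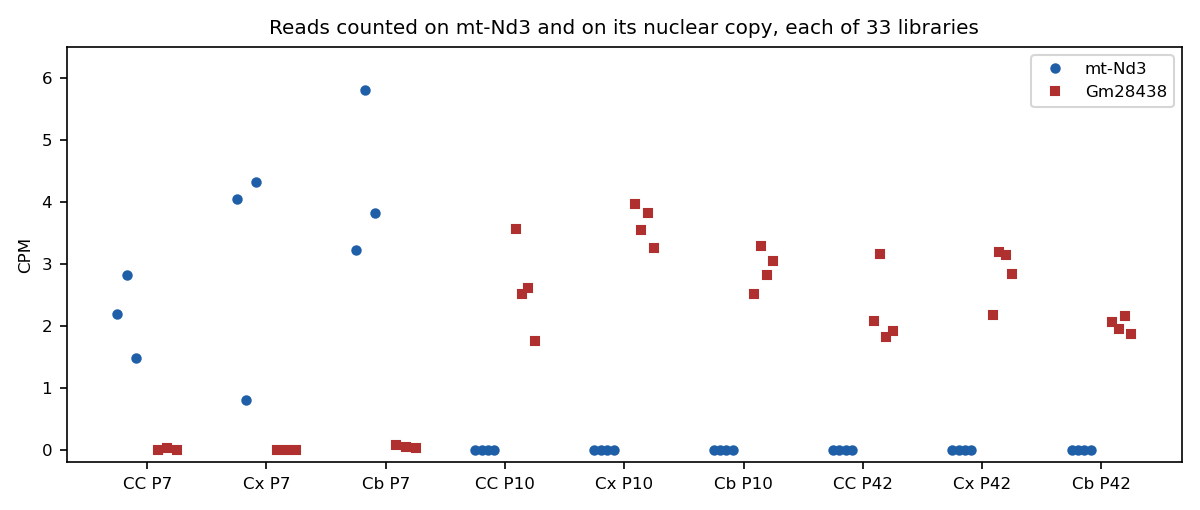
CPM of mt-Nd3 (circles) and of its nuclear copy Gm28438 (squares) in each of the 33 libraries, by region and age. All 9 P7 libraries hold reads counted on mt-Nd3 and almost none on Gm28438. The 24 libraries at P10 and P42 hold reads counted on Gm28438 and none on mt-Nd3.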

How the data were processed

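Microglia of the CC, Cx and Cb were sorted and profiled by bulk RNA-seq in 33 libraries, and one deposited table of whole-number counts per gene was used. The authors made these counts per the submitters' processing notes and the study's methods with CASAVA 1.8.2, STAR 2.5.2b on GRCm38 and featureCounts 1.6.2, without reads that fell on more than one gene or place in the genome; the strand setting is not given in the sources used here. The table also holds the summed exon length of each gene, as deposited, which was not used. The 92 spike-in sequences (594 reads over the 33 libraries, at most 170 in one) were left out of library sizes and tests.

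Of 48587 genes, 17212 had no reads, and the 10458 of the rest with the lowest summed counts (at most 26 reads over all libraries) were removed, which left 20917. edgeR 4.0.16 (R 4.3.3) fitted the quasi-likelihood test with TMM factors to all 33 libraries with 9 group coefficients, so that the groups share one estimate of the spread, and p-values were adjusted by Benjamini-Hochberg over the genes tested. The change from P7 to P10 was tested in each region, as was its difference between regions. Log2 fold changes carry their standard error, and CPM values carry the SD over libraries. Library totals in the CC were 24383500 to 36254600 reads, over 3 libraries at P7 and 4 at P10. The parts of library number and counting error in the precision were not compared. Counts were also simulated, with the library sizes of these data, the mean of each gene over the series and edgeR's own estimates of spread. In these, edgeR recovered 27 of 100 genes changed 2-fold and 63 of 100 changed 4-fold between the CC groups, with 0 false calls (DESeq2 33 and 73 with 30 false calls, limma-voom 21 and 54 with 3). That setting favours edgeR. It gave every library the same spread, without outlying libraries such as P10 replicates 3 and 4. The rates therefore do not rank the tools on the real counts.

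The gene lists were written from general knowledge of microglia with earlier results of these data known. The libraries compared were picked by their labels, also with those results known. Genes are named by a rule: those named by the study, up to 15 with the largest change each way among called genes that averaged 10 CPM or more and whose ages did not overlap, members of each list that were called or, where few were, up to 4 with the smallest adjusted p-value or that define the list, up to 5 per test between regions, and markers of other cells that passed. Other names, among them Mcoln3, mt-Nd3, Gm28438, the further genes that differed from the Cx and unchanged list members, were chosen after their values were seen. A few genes that the rule names are not reported here. Alternatives were limma-voom (limma 3.58.1), DESeq2 1.42.0, its size factors in edgeR (RLE), filterByExpr, no filter, sex as a covariate, a block for the replicate number, only the groups compared, and leaving out each library; leaving out P10 replicates 3 and 4 together, and a block that pairs the regions of one age by replicate number, were added after seeing the data. Start regions came from RefSeq (GRCm38.p6). Same-numbered CC libraries of the 2 ages, and same-numbered libraries of the regions of one age, were checked for pairing by the correlation of their deviations from the group means.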

Additional observations from a re-analysis of the deposited data

Results flagged for a closer look

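In 9 of 172 named genes, 1 of the 4 P10 libraries of the CC lay far from the other 3, by a gap beyond Dixon's limit at the 95% level; chance gives such a gap in about 1 in 20 groups, and 9 of 172 is near that share. P10 replicate 3 was apart for Fam20c (19.9 CPM against a median of 4.94 in the other 3 libraries), Casp1 (60.1 against 28.1), Prdx1 (322 against 232) and Aplp2 (333.5 against 231). P10 replicate 4 was apart for Asap3 (57.0 against 18.1), C1qa (6406 against 5758) and Orai1 (337 against 285). P10 replicate 2 was apart for F13a1 (5.43 CPM, with at most 1 read in the others) and P10 replicate 1 for Herpud1 (171.6 against 189.5).

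The change from P7 to P10 differed between the CC and the Cx, by the test of the difference, for Spp1 (-5.28 on the log2 scale), Itgax (-4.36), Lag3 (-1.74), Aplp2 (-1.32) and Soat1 (-1.30), each more negative in the CC. It differed between the CC and the Cb for Gm44545 (2.86) and Malat1 (1.96), both more positive in the CC.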

How the results depend on the processing

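The 196 genes called in the CC (83 higher, 113 lower) became 327 with limma-voom (61 and 266), 432 with DESeq2 (228 and 204), 203 with RLE factors (102 and 101) and 60 when only the groups compared were fitted, and between 130 and 223 when 1 library was left out. limma-voom moved the median log2 fold change of all genes from -0.0227 to -0.165. The 11 genes that differed from the Cx became 29 with limma-voom, 101 with DESeq2, 6 with only the groups compared, and 6 to 13 without 1 library. The 2 that differed from the Cb became 13 with limma-voom, 72 with DESeq2, 0 with only the groups compared (edgeR), and 0 to 3 without 1 library. The cause of these differences was not tested. The replicate block gave 169 genes in the CC. Replicate numbers did not pair the ages, since same-numbered CC libraries deviated together with correlations of only -0.0294 to 0.0638 over 3 pairs. Between the regions of one age any pairing by number was weak. Same-numbered CC and Cx or Cb libraries had correlations of -0.0499 to 0.121 over 14 pairs, 1 of them above 0.1 and most of them above 0. Libraries of other numbers had correlations of -0.0995 to 0.0766 over 36 pairs. A replicate block within each age, which pairs the regions and was added after seeing the data, gave 11 genes against the Cx, 10 of them the same, and the same 2 against the Cb. With that block the call of Chn2 against the Cx was lost (adjusted p = 0.036, edgeR). Of the 75 named genes that were called, 48 stayed called in each of the 7 fits without 1 CC library, 73 with DESeq2, 72 with RLE factors, 62 with limma-voom, 66 with the replicate block, 72 with sex as a covariate, 61 without P10 replicates 3 and 4, and 38 with only the groups compared, and 0 reversed in any of these settings or without a filter. Of the 39 named genes that passed the wider rule only, 28 passed in each of the 7 fits without 1 CC library and 28 without P10 replicates 3 and 4. With only the groups compared 23 of them passed, with limma-voom 37 and with DESeq2 39. Of 58 named genes that passed neither rule, 23 passed in some setting.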
